A study of Camellia sinensis with 9 samples.

Results

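Glutamate synthase (GOGAT) was represented here by 7 of the 179951 unigenes assembled from the young leaves of ‘Anji Baicha’, a tea cultivar whose shoots are pale in cool spring weather and turn green later. The 7 unigenes, unigene201, unigene24016, unigene92537, unigene169100, unigene3473, unigene7036 and unigene3438, were taken by number from the 13 that the theanine list of the paper assigns to GOGAT, and all 7 were found in each stage. Leaves of 4-year-old plants formed 3 groups, namely the yellow-green stage (YG, the first leaf of the opening shoot), the white stage (W, off-white leaves further down the shoot) and the green stage (G, re-greened leaves from lower positions), with 3 libraries per stage from separate plants. The cultivar, garden and plant age were shared by all groups, whereas leaf position, collection date and temperature moved with the stage and cannot be told apart from it. Expression was given as FPKM (fragments per kilobase of unigene, scaled to the number of mapped fragments), with a single pooled value for each unigene at each stage. No difference between stages below therefore has a replicate check, a standard error or a p-value.

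GOGAT transfers the amide nitrogen of glutamine to 2-oxoglutarate and so yields glutamate. Together with glutamine synthetase (GS), which makes glutamine from glutamate and ammonium, it forms the cycle through which plants bring inorganic nitrogen into amino acids. Plants have a ferredoxin-dependent GOGAT, abundant in the chloroplasts of green leaves, where it also recovers ammonium released in photorespiration, and an NADH-dependent GOGAT, known mainly from roots and vascular or developing tissues. In tea, glutamate is also a substrate of theanine, the amino acid that gives the beverage its umami taste. The annotation used here names all 7 unigenes GOGAT without saying which form each encodes, it was made by sequence similarity, and no sequence of the unigenes was used here to check it.

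The most abundant of the 7 unigenes over the stages was unigene201, and it was also the one that differed most between them. Its FPKM was 12.0 in YG leaves, 29.5 in W leaves and 55.7 in G leaves, higher at each later stage. The FPKM in G was 4.64 times that in YG, a difference of 2.12 on the log2(FPKM + 1) scale, which is used for all log2 values below unless stated and which understates changes of weakly expressed unigenes. The step was larger between YG and W (2.45-fold, log2 difference 1.23) than between W and G (1.89-fold, log2 difference 0.90). In G, 99.7% of all unigenes had a lower FPKM than unigene201, and in YG 97.9% had.

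The opposite order was found in unigene24016 and unigene7036. The FPKM of unigene24016 was 14.7 in YG leaves, 8.84 in W leaves and 5.81 in G leaves, so that it ranked 5 among the 7 in G and 1 in YG. Its G value was 0.397 times the YG value, a log2 difference of -1.20, of which -0.67 fell on the first step (W minus YG) and -0.53 on the second (G minus W). The second unigene of this kind, unigene7036, had 6.68 in YG leaves, 4.58 in W leaves and 3.56 in G leaves, a log2 difference of -0.75 between G and YG. Both were thus lower at each later stage, and unigene24016 alone among the 7 had a G value more than 2-fold below its YG value. The FPKM of unigene24016 was 2.20 times that of unigene7036 in YG leaves, 1.93 times in W leaves and 1.63 times in G leaves, since the larger value also had the larger change.

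The other 4 unigenes differed by less than 2-fold between any pair of stages. The FPKM of unigene169100 was 5.26 in YG leaves, 6.80 in W leaves and 8.56 in G leaves, the same order as in unigene201 but with a log2 difference of only 0.61 between G and YG. In unigene92537 it was 6.98 in YG leaves, 6.27 in W leaves and 9.92 in G leaves, and in unigene3473 5.56, 4.34 and 5.97 in the same order of stages. Both of these unigenes had their lowest value in the white leaves. For unigene92537 the dip at W was slight, with a log2 difference of -0.13 between W and YG, and most of its change lay between W and G (0.59). For unigene3473 both steps were small, -0.30 on the first step and 0.38 on the second, and its YG and G values differed by only 0.087. The weakest of the 7 was unigene3438, with 1.66 in YG leaves, 1.94 in W leaves and 1.95 in G leaves, and its log2 difference was 0.15 for G minus YG and 0.0039 for G minus W. The order of its W and G values turned under each of the rescalings tried, and that of the YG and G values of unigene3473 under quantile normalization, so neither pair can be ordered from these single values. The paper, which tested the FPKM of 3 libraries per stage, reports unigene3473 as up-regulated in G, without naming the stage it was compared with.

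**Figure D1:**
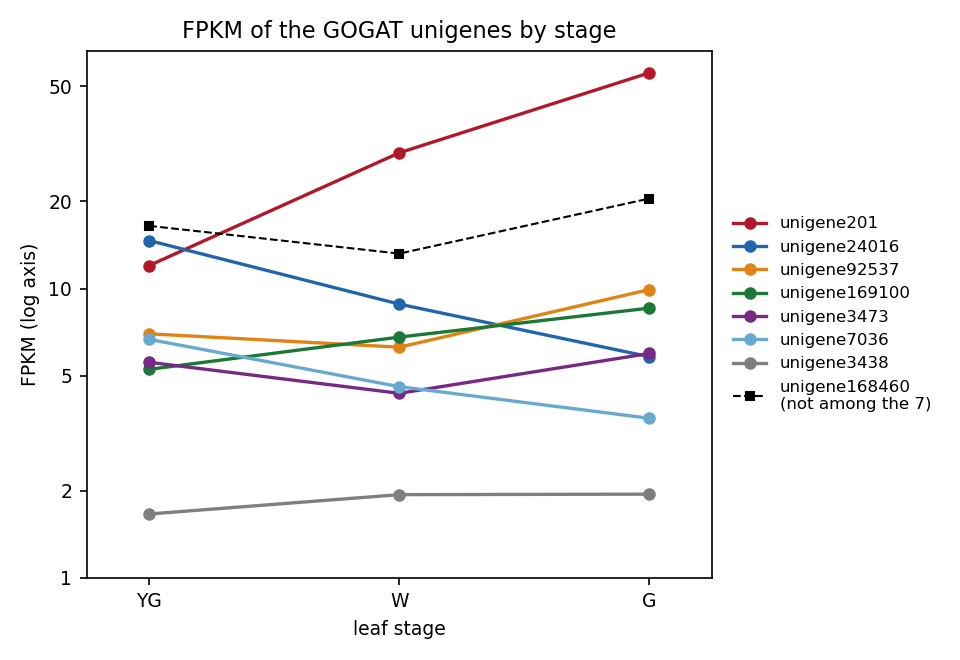
FPKM (log axis) of the 7 GOGAT unigenes by leaf stage, with 1 point per unigene and stage and no error bars, since there is 1 value per stage; the dashed black line with squares is unigene168460, which the paper's list also names GOGAT. The line of unigene201 climbs from below that of unigene24016 in YG to 55.7 in G, whereas unigene24016 and unigene7036 descend at each step and unigene3438 stays near 2.

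A log2 difference of 1 or more was counted as 2-fold. In G against YG, 1 of the 7 unigenes (unigene201) was counted as higher and 1 (unigene24016) as lower. The shares were 15.1% higher and 14.2% lower among the 78868 unigenes that reached an FPKM of 1 at some stage, as all 7 did. In W against YG, 1 of the 7 (unigene201) was counted as higher and 0 as lower, beside 11.4% and 9.11% of all unigenes. In G against W, 0 of the 7 were past the threshold in either direction, beside 10.2% of all unigenes higher and 11.8% lower, and no test could be run on these single values. The counts of 1 and 0 among 7 are close to these background shares, so nothing about GOGAT can be read from them. The paper had selected 6 of the 7, all but unigene3438, as differing between stages in these same libraries, so the directions above are not independent evidence.

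The median log2 difference over the 7 was -0.13 for W minus YG, 0.29 for G minus W and 0.15 for G minus YG, beside 0.0014, 0 and 0 over the 78868 unigenes. In W against YG, 3 of the 7 were higher and 4 lower, beside 50.1% and 46.5% of the 78868 unigenes. In G, 5 were higher and 2 lower, both against W (beside 47.0% and 49.6%) and against YG (beside 47.8% and 47.9%). The 5 include the unordered pairs of unigene3438 (G and W) and unigene3473 (G and YG), so 4 higher and 3 lower were found for G against W under each rescaling and for G against YG under quantile normalization. With only 7 unigenes, nothing about GOGAT can be read from these counts of directions. The order YG < W < G was found in unigene201 and unigene169100, and in unigene3438 if its unordered pair is counted. It was present in 22.2% of the 78868 unigenes, among which no pair was set aside. The reverse order of unigene24016 and unigene7036 was present in 21.7%. Among the 59256 unigenes above 0 in every stage, as all 7 were, the shares were 25.6% and 24.5%.

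**Figure D2:**
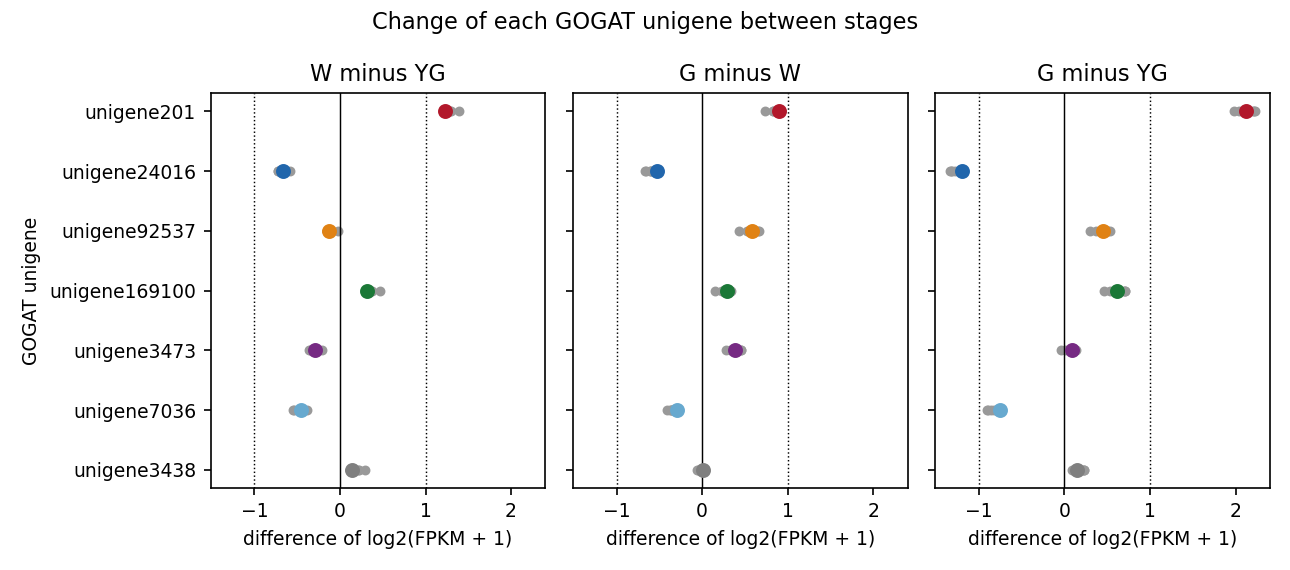
Difference of log2(FPKM + 1) for each GOGAT unigene (rows, ordered by mean FPKM) in W minus YG, G minus W and G minus YG, as coloured points; grey points and bars give the same difference with a pseudocount of 0.1, with none, and under 3 rescalings, and dotted lines mark 2-fold. The points of unigene201 stay to the right of 0 and those of unigene24016 and unigene7036 to the left in every panel, and values on both sides of 0 are seen only for unigene3473 and unigene3438.

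As FPKM is a level per length, the values of the 7 unigenes were also added. The sum was 52.8 in YG leaves, 62.2 in W leaves and 91.5 in G leaves, so that W was 1.18 times YG, G was 1.47 times W and G was 1.73 times YG. The higher sum in G came from unigene201, which was 43.7 FPKM higher in G than in YG, more than the 38.7 by which the sum was higher. Without it the other 6 summed to 40.8 in YG leaves, 32.8 in W leaves and 35.8 in G leaves, lowest in W, and G was 0.877 times YG. Unigenes can be pieces or near-copies of 1 gene, so the sum is a description and not the abundance of the enzyme's transcripts. In whole leaves, moreover, fewer cells of a type and less RNA per cell cannot be told apart.

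The composition of the sum also differed between stages. In YG the largest share belonged to unigene24016, with 27.8%, followed by unigene201 with 22.7%, unigene92537 with 13.2% and unigene7036 with 12.6%. In W, unigene201 held 47.4% and unigene24016 14.2%. In G, unigene201 held 60.9%, followed by unigene92537 with 10.8% and unigene169100 with 9.36%, while unigene24016 held 6.35% and unigene7036 3.89%. The share of unigene169100 was nearly level, with 9.96% in YG leaves, 10.9% in W leaves and 9.36% in G leaves, so its FPKM kept pace with the sum. The FPKM of unigene201 was 0.820 times that of unigene24016 in YG leaves, 3.34 times in W leaves and 9.58 times in G leaves. Expressed as the number of equally abundant unigenes that would give the same concentration of shares (the inverse of the summed squared shares), the 7 amounted to 5.43 in YG leaves, 3.60 in W leaves and 2.49 in G leaves. The shares were thus less even in G leaves than in YG leaves. This was not so without unigene201, where the other 6 amounted to 4.50 in YG leaves, 5.18 in W leaves and 4.97 in G leaves.

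**Figure D3:**
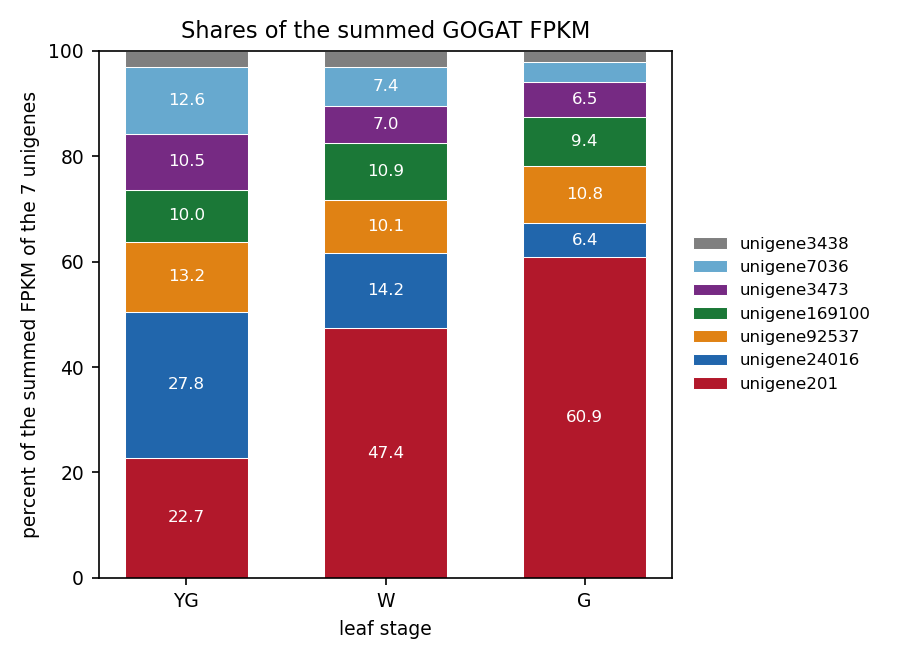
Stacked bars of the percent of the summed FPKM that each of the 7 GOGAT unigenes held, by leaf stage, with shares above 5 printed in the bars. The bottom segment, unigene201, widens to 60.9% in G, against 22.7% in YG, and the one above it, unigene24016, narrows to 6.35% in G, against 27.8% in YG.

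The 6 further unigenes that the paper's list names GOGAT were mostly weak, with 1 exception. The FPKM of unigene168460 was 16.5 in YG leaves, 13.2 in W leaves and 20.5 in G leaves, which made it the highest of all 13 in YG and second to unigene201 in W and G. Like unigene92537 and unigene3473 it was lowest in W, and its log2 difference was -0.30 on the first step and 0.60 on the second. The FPKM of unigene55560 was 0.692 in YG leaves, 0.987 in W leaves and 0.942 in G leaves, below the minimum of 1 throughout. The remaining 4 were listed at 0 in at least 1 stage, and since such a value can be a failed estimate no fold is given for them. Of these, unigene163522 had 0.878 in W and 1.38 in G and was listed at 0 in YG, and unigene175936 had 1.35 in YG and 2.51 in G and was listed at 0 in W. Both unigene154448 and unigene159796 had a value in W alone, 3.34 and 0.786. Over all 13, the sum was 71.3 in YG leaves, 81.4 in W leaves and 116.8 in G leaves, so that the direction of the sum was the same as over the 7. The share of unigene201 was smaller in this wider sum, 16.8% in YG leaves, 36.2% in W leaves and 47.7% in G leaves.

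The other enzymes of the theanine lists were set beside GOGAT. GS had 14 listed unigenes, theanine synthetase (TS), which joins glutamate and ethylamine, had 10, of which 6 were also listed for GS, and AIDA, named for the decarboxylation of alanine to ethylamine, had 5. No tea gene for this step had been characterised by then, and the paper took arginine decarboxylase unigenes with similar domains for AIDA. The FPKM of the GS unigenes summed to 216 in YG leaves, 309 in W leaves and 572 in G leaves, the last being 2.65 times the first, and that of the TS unigenes to 207, 312 and 599. The 6 unigenes in both lists made up most of either sum, with 196, 282 and 538, so the GS and TS sums are not separate results. The AIDA sum was instead lowest in W and highest in YG, with 137 in YG leaves, 94.3 in W leaves and 116 in G leaves. The summed FPKM of the 7 GOGAT unigenes was 0.245 times that of GS in YG leaves, 0.201 times in W leaves and 0.160 times in G leaves. Over all 13 it was 0.331, 0.263 and 0.204 times. Without 1 GS unigene, unigene58305, GS summed to 184 in YG leaves, 203 in W leaves and 329.6 in G leaves. The ratios for the 7 were then 0.288, 0.306 and 0.277, a comparison added after the values were seen. It left unigene201 in the GOGAT sum. Without unigene201, the GOGAT sum in G was 0.877 times that in YG, beside 1.80 times for GS without unigene58305. With both left out, the ratio was thus again lower in G than in YG.

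**Figure D4:**
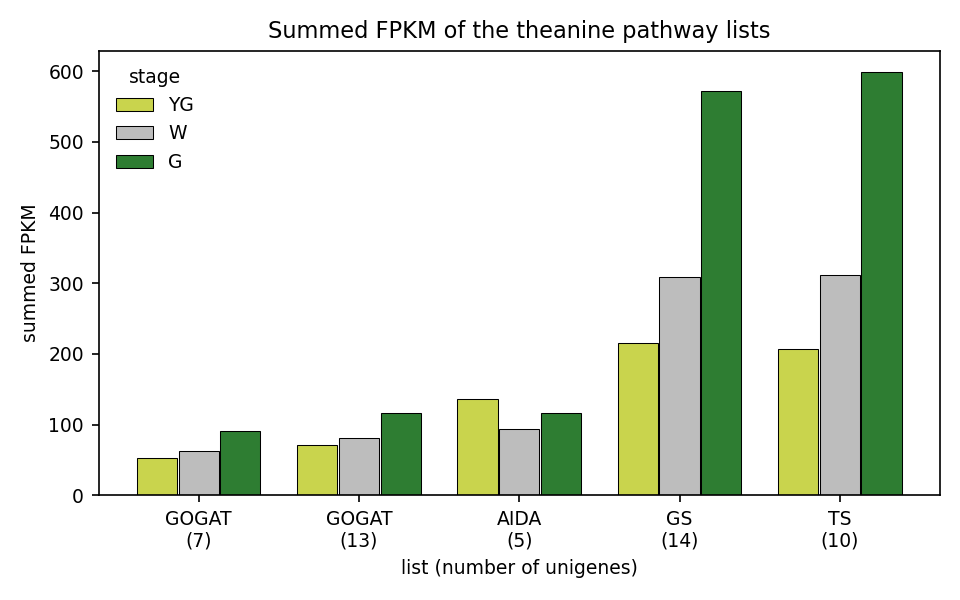
Summed FPKM of the 7 GOGAT unigenes, of all 13 listed for GOGAT, and of the AIDA, GS and TS lists by leaf stage, as bars starting at 0; the number of unigenes is given under each list, and GS and TS share 6. The GOGAT bars are higher at each later stage and stay far below the GS and TS bars, which reach 572 and 599 in G.

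By counts, 8 of the 14 GS unigenes passed the minimum FPKM, and in G against YG 3 of these were counted as higher and 2 as lower. Of the 9 TS unigenes that passed, 6 were higher and 1 lower, and of the 5 AIDA unigenes 0 were higher and 2 lower, beside the 15.1% higher and 14.2% lower of all unigenes. The 0 depends on the pseudocount, since unigene37160 had a log2 difference of 0.99 and an FPKM ratio of 2.04. Of the 5 unigenes in both the GS and the TS list that passed, 3 were higher and 1 lower, so the GS and TS counts overlap. Of the 14 GS unigenes, 4 were listed at 0 in YG and 3 in G. The median log2 difference between G and YG was 0.72 for GS, 2.23 for TS and 0.33 for AIDA, beside 0.15 for the 7 GOGAT unigenes and 0 for all unigenes. The same 2 unigenes had the highest mean FPKM in both the GS and the TS list. In unigene58305 the FPKM was 32.2 in YG leaves, 106 in W leaves and 243 in G leaves, the order of unigene201, and in unigene13585 it was 103.6, 100.4 and 153, lowest in W like unigene92537. The highest AIDA unigenes were unigene132868, with 55.3 in YG leaves, 39.1 in W leaves and 22.5 in G leaves, the order of unigene24016, and unigene37160, with 18.5, 15.6 and 37.7. Each of the 3 stage orders of the GOGAT unigenes was thus also found among abundant unigenes of the other steps.

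Finally, the profile of each of the 7 over the 3 stages was compared with those of 126 other unigenes of the carotenoid, chlorophyll and theanine lists that passed the minimum, by the Euclidean distance of log2(FPKM + 1) centred on each unigene's mean. Nearest to unigene201 were unigene28019, listed for ispF of the plastid isoprenoid pathway, with 8.67 in YG leaves, 20.7 in W leaves and 36.1 in G leaves (distance 0.133), and the TS unigene89631, with 4.93, 14.8 and 26.7 (0.134). Nearest to unigene24016 were unigene71483, listed for HEMB, an early enzyme of tetrapyrrole synthesis, with 7.37 in YG leaves, 4.42 in W leaves and 2.49 in G leaves (0.074), and the AIDA unigene132868 (0.18). A profile of 3 points is easily matched. Of all 78868 unigenes, between 120 and 1995 were nearer to the GOGAT unigene than the neighbour named here, fewest for unigene28019 and most for the second neighbour of unigene7036. For unigene92537 the nearest were the HEMA unigene36734 (0.076) and the GGPS unigene15643 (0.080). The FPKM of unigene15643 was only 0.632 in YG, 0.541 in W and 1.14 in G, where the pseudocount hides a larger fold. For unigene7036 the nearest were the GGPS unigene41970 (0.094) and the CHLD unigene55992 (0.14). For unigene169100 they were the CHLP unigene1182 (0.053) and the ZEP1 unigene98934 (0.067, on FPKM values of only 0.310, 0.740 and 1.04, where the pseudocount hides a larger fold), for unigene3473 the ispE unigene133370 (0.053) and the NOL unigene102125 (0.085), and for unigene3438 the GSA unigene37850 (0.052) and the ispE unigene8252 (0.055). No GOGAT unigene was among the nearest 2 of another. Only 11 of the 13 listed for GOGAT passed the minimum, so few of the 126 candidates were GOGAT, and this absence says little about the family.

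The FPKM values of all unigenes summed to between 349550 and 382235 per stage, and the 10 highest unigenes held between 8.66% and 17.2% of the sum, most in YG. All 18 unigenes listed for the chlorophyll synthesis genes CHLH, CHLD, CHLM, CHLG, CAO and PORA had a value above 0 in every stage. An FPKM of 1 was reached by 14 of them in YG leaves, 14 in W leaves and 12 in G leaves. They were annotated in an assembly built from these same leaves, where most unigenes had a value above 0. Of all 179951, those listed at 0 numbered 37153 for YG, 29821 for W and 39037 for G. Detection of the 18 therefore cannot check the tissue label. Together the 18 summed to 230 in YG leaves, 236 in W leaves and 301 in G leaves. Without the CHLH unigene24228, the highest in each stage, the sums were 181, 147 and 91.7. The annotation names no markers of other cell types, so the mixture of cells in the leaves was not tested.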

How the data were processed

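RNA-seq libraries (9 in all, 3 per stage) were grouped by the leaf stage in their labels. The authors filtered the reads, built unigenes de novo with Trinity and computed FPKM with Cufflinks. The submitters' processing notes name Cufflinks 2.1.1 and the paper's methods an earlier release. The deposited FPKM values hold 1 column per stage. How libraries were combined, the aligner and the handling of reads shared by similar unigenes are not given in the sources used here. All 3 columns were used. The design foresaw limma on values per library; with 1 value per stage its stated alternative, a description without a test, was used.

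Changes are differences of log2(FPKM + 1), later minus earlier stage, over the 78868 unigenes that reached an FPKM of 1 at some stage, and a difference of at least 1 was counted as 2-fold. The paper gives the reads sequenced for each library, the highest number being that of a YG library. The mapped fragments behind a stage value are not known. Low values showed several recurrent ratios between stages, so a fragment had no single worth per stage, and unigene lengths were not used, so fragments were not recovered and no interval is given. The counting step was tested on simulated data.

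The 7 unigenes and the lists were chosen with earlier results of these data known. The text names the 7, the other 6 unigenes listed for GOGAT, the 2 of each other theanine list with the highest mean FPKM, and the 2 annotated unigenes nearest in profile to each of the 7. The alternatives tried were a pseudocount of 0.1, rescaling to a sum of 1000000, upper-quartile scaling, quantile normalization, no filter, all 13 unigenes and the sum without unigene201; log2 ratios with no pseudocount were added after seeing the data. None of the identifiers matched the RefSeq gene table of tea, so no position or sequence is given. Python 3.11.15, pandas 2.3.3, numpy 2.4.6 and matplotlib 3.10.9 were used.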

Additional observations from a re-analysis of the deposited data

How the results depend on the processing

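Each of the 21 differences of the 7 GOGAT unigenes was recomputed under 5 alternatives (a pseudocount of 0.1, none, and 3 rescalings), and 101 of the 105 values kept their direction and their side of the 2-fold threshold. The 4 others were near 0. They were the difference of unigene3438 between G and W, -0.066 when rescaled to a common sum, -0.0084 after quantile normalization and -0.045 after upper-quartile scaling, and that of unigene3473 between G and YG, -0.037 under quantile normalization. Rescaling to a common sum moved the median difference of all unigenes between W and YG to 0.11. Between G and YG, the alternatives gave 1.98 to 2.22 for unigene201, beside 2.12 in the main setting. For unigene24016 they gave -1.33 to -1.24, each a larger fall than the -1.20 of the main setting. The counts of the 7 past the threshold were the same with either other pseudocount and under the 3 rescalings. Leaving out the filter could not change them, since all 7 passed it. Of the 13 listed unigenes, 11 passed the minimum. Among these, 2 were counted as higher and 1 as lower in W against YG, beside 11.4% and 9.11% of all unigenes. In G against W the counts were 1 and 1 (beside 10.2% and 11.8%), and in G against YG 2 and 1 (beside 15.1% and 14.2%). Every call beyond unigene201 and unigene24016 rested on a value listed at 0, so nothing can be read from the added calls. The log2 ratio of the summed FPKM, 0.24 for W over YG and 0.79 for G over YG, became -0.32 and -0.19 without unigene201. With all 13 unigenes the share of unigene201 was 16.8% in YG leaves, 36.2% in W leaves and 47.7% in G leaves, and that of unigene24016 20.6%, 10.9% and 4.98%.

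Among all unigenes, a pseudocount of 0.1 raised the counts past the threshold to 15888 higher and 12669 lower in W against YG, 14103 higher and 16836 lower in G against W, and 19009 higher and 18719 lower in G against YG, in place of 8969, 7183, 8083, 9316, 11902 and 11198 in the same order. Rescaling to a common sum, which changes both the scale between stages and the weight of the pseudocount, gave 14426 higher and 9647 lower in W against YG, or 59.9% of the calls higher in place of 55.5%, and 11289 higher and 14734 lower in G against W. No paired analysis was possible because the files hold 1 value per stage, and for the same reason no replicate could be left out. The unknown number of fragments behind a value limits the weak unigenes most, above all unigene3438 and those listed at 0.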
